A study of Saccharomyces cerevisiae with 9 samples.

Results

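The genes described here are the 10 that build, break down and regulate glycogen in budding yeast: GSY1, GSY2, GLG1, GLG2, GLC3, GPH1, GDB1, GAC1, PIG1 and PIG2. They were chosen by name, with earlier results of these arrays known. Each had 1 probe set, and they are 10 of 5449 Saccharomyces cerevisiae genes measured. The tested cultures were 3 of the laboratory strain BY4742 with LOS1 deleted, in which the array titles name URA3 (cultures 7 to 9). They were set against 6 wild-type BY4742 cultures (cultures 1 to 6), with 1 Affymetrix Yeast_2 array per culture, to ask which transcripts change when the tRNA exportin Los1 is missing. All cultures grew in rich glucose medium (YEPD, 50 ml) at 30 °C and 225 rpm and were collected at an OD600 of 0.5. BY4742 is a haploid strain of mating type alpha with inactive HIS3, LEU2, LYS2 and URA3, and both groups share this background apart from URA3. The protocols in the labels describe 3 isolates per strain, with the wild-type cultures grown as duplicates, without telling which wild-type arrays come from the same isolate. Each array was therefore treated as 1 replicate, and p-values measure the spread between cultures, part of which may lie within an isolate.

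Glycogen is a branched polymer of glucose that yeast stores as its glucose supply runs down and under stress. A self-glucosylating primer protein (glycogenin) starts each particle, glycogen synthase lengthens the chains, and the branching enzyme adds branches. Phosphorylase and the debranching enzyme take the polymer apart again, and protein phosphatase 1, guided by targeting subunits, keeps the synthase dephosphorylated and active. Transcription of many of these genes is known to be low in glucose-rich medium and to be raised by stress factors and by the kinase Snf1, while cAMP-dependent kinase opposes it.

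Values are the authors' log2 expression from RMA, so each gene's value can be compared between arrays but not with that of another gene, and every difference is measured against the rest of that array's transcripts. All 10 genes lay above the background level on all 9 arrays, where background is the 95th percentile of the fission yeast probe sets on the array (4.68 to 4.74). A fold made from these values in whole cultures cannot tell fewer cells with a transcript from less RNA per cell. Differences are los1 knockout minus wild type from limma, called where the Benjamini-Hochberg adjusted p over all 5449 genes was under 0.05, and means carry SDs with n = 3 knockout and n = 6 wild-type cultures.

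The arrays matched their labels. LOS1 was at 3.65, 2.76 and 3.18 in knockout cultures, under background on each array, against 10.89 to 11.34 in wild type. This was at least 84.1-fold lower, with a limma adjusted p of 4.79e-10. URA3 was at 10.84 to 10.91 in knockout cultures and under background in wild type, so it was at least 72.8-fold higher (limma adjusted p = 2.06e-11). No array carried only one of these changes, so an effect of LOS1 loss and one of URA3 cannot be told apart. The markers of mating type alpha were bright in both groups. MF(ALPHA)1, a pheromone gene, averaged 13.91 in knockout and 13.83 in wild type, and the receptor gene STE3 averaged 12.19 in knockout and 12.34 in wild type. The receptor gene of the opposite mating type, STE2, averaged 7.60 in knockout and 7.41 in wild type. It and the other listed genes of that mating type (MFA1, MFA2 and BAR1) lay above background on every array. The values therefore do not show these genes to be silent.

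The debranching enzyme and phosphorylase genes were lower without LOS1, 1 glycogenin gene was slightly higher, and the remaining 7 genes did not pass the test. GDB1 and GPH1 fell by 0.66 and 0.72 on the log2 scale, and GLG2 rose by 0.20. This is 3 of 10 genes past the threshold, 2 lower and 1 higher, where 5.52% of all genes passed (2.90% lower and 2.62% higher). The median difference over the 10 genes was -0.28, against -0.01 over all genes. In 4 of the 10 genes the groups did not overlap (GDB1, GPH1, GSY2 and GLG2), while 12.6% of all genes showed no overlap (7.38% lower in knockout and 5.19% higher). The list was chosen with earlier results of these arrays known, so neither count is independent evidence that glycogen genes change more often than others. The count of 3 depended on single cultures. It was 1 (GDB1) when any of knockout cultures 7, 8 or 9 or wild-type cultures 3, 4 or 6 was left out, and 4 without wild-type culture 5, where GLG1 also passed.

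**Figure D1:**
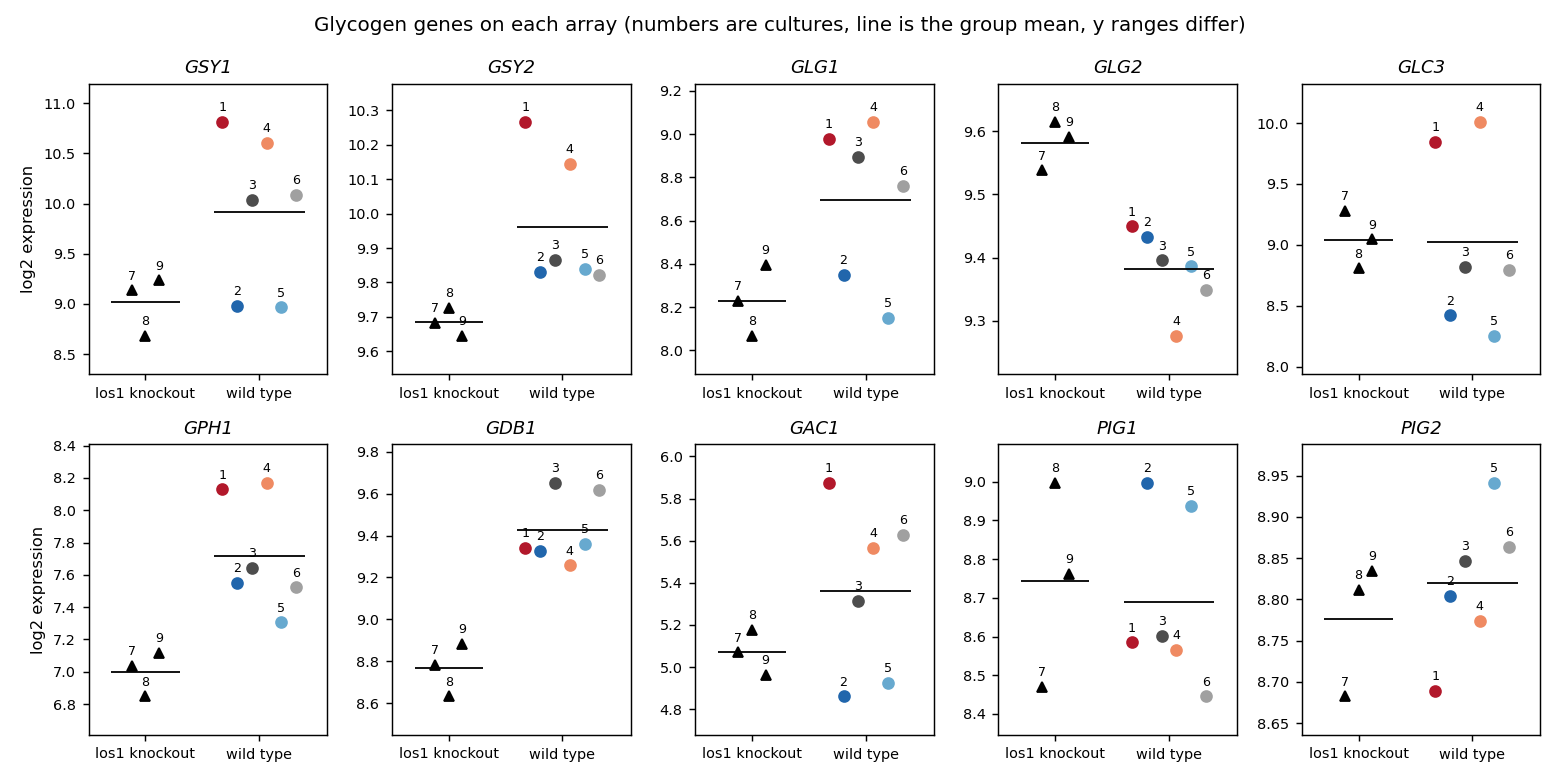
Log2 expression of the 10 glycogen genes on each array, with the 3 los1 knockout cultures as black triangles on the left of each panel and the 6 wild-type cultures as circles on the right, numbered by culture. Horizontal lines are group means and the y ranges differ between panels. Knockout triangles lie clear of the wild-type circles for GDB1, GPH1, GSY2 and GLG2, while in GSY1, GLG1, GLC3, GPH1 and GSY2 wild-type cultures 1 and 4 are the highest wild-type circles.

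Of the enzymes that degrade glycogen, GDB1 (YPR184W) encodes the debranching enzyme, which removes the short stubs that phosphorylase leaves at branch points. It was at 8.78, 8.63 and 8.88 in knockout cultures 7, 8 and 9, against a lowest wild-type value of 9.26, a median of 9.35 and a highest of 9.65. All 3 knockout cultures lay well under all 6 wild-type cultures. The means were 8.77 ± 0.13 in knockout and 9.43 ± 0.17 in wild type, a difference of -0.66 ± 0.10 (SE, 1.58-fold lower, limma adjusted p = 0.003). Of the 3 calls, GDB1 alone passed in all 22 alternative settings, with differences between -0.72 and -0.59 and adjusted p between 7.37e-04 and 0.0234.

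GPH1 (YPR160W) encodes glycogen phosphorylase, which releases glucose-1-phosphate from the chain ends. It was at 7.04, 6.85 and 7.12 in knockout cultures 7, 8 and 9, against a lowest wild-type value of 7.31, a median of 7.60 and a highest of 8.17. The groups did not overlap, although wild-type culture 5, at 7.31, was close to knockout culture 9, at 7.12. Knockout averaged 7.0 ± 0.14 and wild type 7.72 ± 0.35, a difference of -0.72 ± 0.18 (SE, 1.65-fold lower). Its limma adjusted p of 0.0481 stood just inside the threshold. The call was lost in 8 of the 9 fits that left out 1 culture (all but the one without wild-type culture 5), with adjusted p up to 0.184 without knockout culture 8, and after repeated quantile normalization (adjusted p = 0.0519). It held without wild-type cultures 1 and 4 together, at a difference of -0.50 (limma adjusted p = 0.0265). These were its highest wild-type cultures, so leaving them out shrank the difference and also narrowed the wild-type spread.

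The glycogenin genes GLG1 and GLG2, whose products prime new glycogen particles, had differences of opposite sign. GLG2 (YJL137C) was at 9.54, 9.61 and 9.59 in knockout cultures 7, 8 and 9, against a lowest wild-type value of 9.28, a median of 9.39 and a highest of 9.45. All knockout cultures lay above all wild-type cultures, but by little: the lowest knockout value was 9.54 and the highest wild-type value 9.45, where wild-type values spanned 0.17. The means were 9.58 ± 0.04 in knockout and 9.38 ± 0.06 in wild type, so GLG2 rose by 0.20 ± 0.05 (SE, 1.15-fold, limma adjusted p = 0.0350). That call was lost in 6 of the 9 fits without 1 culture and without wild-type cultures 1 and 4 (adjusted p = 0.0736), with a difference of 0.18 to 0.22 in the 9 fits.

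GLG1 (YKR058W) was at 8.23, 8.07 and 8.39 in knockout cultures 7, 8 and 9, against a lowest wild-type value of 8.15, a median of 8.83 and a highest of 9.06. Knockout cultures overlapped wild-type cultures 2 and 5 (8.35 and 8.15) and lay under the other 4. The difference of -0.47 ± 0.19 (SE) did not pass (limma adjusted p = 0.184). The gap between the 2 glycogenin genes, taken on each array as GLG2 minus GLG1, was 1.20 to 1.55 in knockout and 0.22 to 1.24 in wild type. Its mean was larger in knockout by 0.67, which was not past the threshold in an exact 2-sided permutation test (p = 0.0595, and 0.238 adjusted over the 4 paralog pairs compared), where the smallest possible p was 0.0119.

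The glycogen synthase genes did not pass. GSY2 (YLR258W), which encodes the main synthase of cells that run out of glucose, was at 9.68, 9.73 and 9.65 in knockout cultures 7, 8 and 9. Wild type had a lowest value of 9.82, a median of 9.85 and a highest of 10.27. The groups did not overlap, yet 4 wild-type cultures lay at 9.82 to 9.86, close to the knockout cultures, while cultures 1 and 4 stood above them at 10.27 and 10.14. The difference was -0.28 ± 0.10 (SE, limma adjusted p = 0.151), with a 95% interval of -0.50 to -0.05 before adjustment for many genes.

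GSY1 (YFR015C), the other synthase gene, varied most of the 10 among wild-type cultures. It was at 9.13, 8.68 and 9.23 in knockout cultures 7, 8 and 9, against 10.81 and 10.61 in wild-type cultures 1 and 4, 10.03 and 10.09 in cultures 3 and 6, and 8.98 and 8.97 in cultures 2 and 5. Knockout cultures thus overlapped wild-type cultures 2 and 5 only. The difference was -0.90 ± 0.40 (SE), the largest of the 10 in size, and it did not pass (limma adjusted p = 0.224, 95% interval -1.79 to -0.01 before adjustment). Without wild-type cultures 1 and 4 it was -0.50 (limma adjusted p = 0.498). The gap of GSY2 minus GSY1 averaged 0.67 ± 0.33 in knockout and 0.05 ± 0.65 in wild type, and its difference of 0.62 was not past the threshold either (exact permutation p = 0.155, adjusted over the 4 pairs 0.310).

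GLC3 (YEL011W) encodes the branching enzyme. It was at 9.28, 8.81 and 9.05 in knockout cultures 7, 8 and 9, against 9.84 and 10.01 in wild-type cultures 1 and 4, 8.82 and 8.80 in cultures 3 and 6, and 8.42 and 8.25 in cultures 2 and 5. Knockout cultures lay inside the wild-type range, under cultures 1 and 4 and mostly above the other 4. The mean difference was 0.02 ± 0.37 (SE, limma adjusted p = 0.982), and its 95% interval of -0.80 to 0.84 still allows a change of the size seen in GPH1 either way. It moved to 0.47 without wild-type cultures 1 and 4, again without passing (limma adjusted p = 0.193).

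The 3 targeting subunits of protein phosphatase 1 did not pass. GAC1 (YOR178C), which directs the phosphatase to glycogen synthase, lay close to background, at 5.07, 5.18 and 4.96 in knockout cultures 7, 8 and 9 and 4.86 to 5.87 (median 5.44) in wild type. RMA compresses differences at such levels, and the groups overlapped (difference -0.29, limma adjusted p = 0.436). PIG1 (YLR273C), its paralog, was at 8.47, 9.0 and 8.76 in knockout cultures 7, 8 and 9 and at 8.45 to 9.0 (median 8.59) in wild type (difference 0.05, limma adjusted p = 0.860). PIG2 (YIL045W), another subunit that interacts with Gsy2, was at 8.68, 8.81 and 8.83 in knockout and 8.69 to 8.94 (median 8.83) in wild type. Its difference was -0.04 with a 95% interval of -0.17 to 0.09 (limma adjusted p = 0.712), the narrowest interval among the 7 genes that did not pass. The paralog gaps PIG1 minus GAC1 and PIG2 minus GIP2 differed between knockout and wild type by 0.35 and -0.01 (exact permutation p = 0.381 and 0.893, adjusted over the 4 pairs 0.508 and 0.893).

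**Figure D2:**
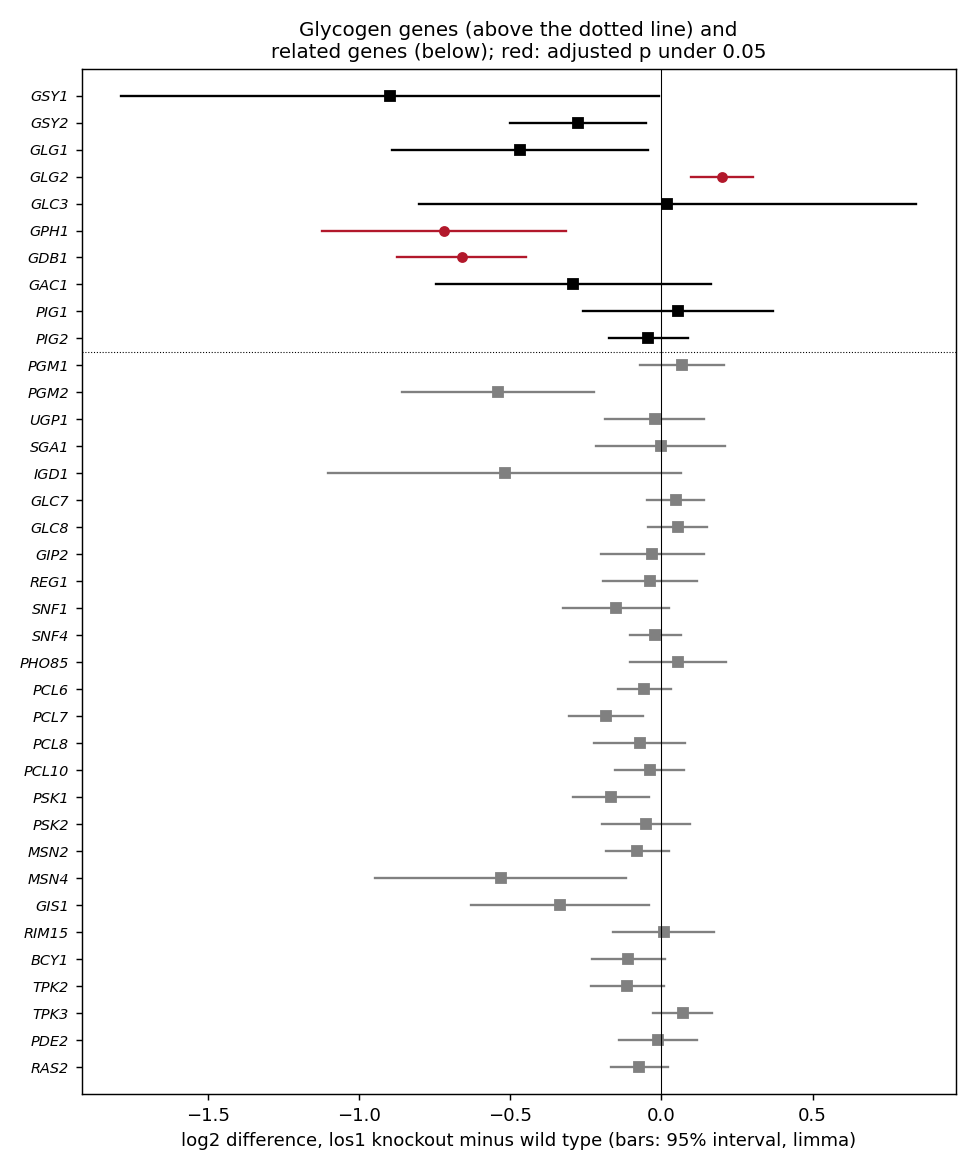
Log2 differences (los1 knockout minus wild type, n = 3 and 6 arrays) with 95% intervals from limma for the 10 glycogen genes above the dotted line and 27 related genes below it. Red circles mark the 3 genes past the adjusted threshold, GLG2 above 0 and GPH1 and GDB1 below it, while squares did not pass. The widest intervals belong to GSY1 and GLC3.

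Most of the glycogen genes were unusually variable among the wild-type cultures themselves. The wild-type SD was 0.79 for GSY1, 0.73 for GLC3, 0.40 for GAC1, 0.37 for GLG1 and 0.35 for GPH1, and each of these 5 exceeded the wild-type SD of over 98% of all genes. The median gene had an SD of 0.09, and GLG2 and PIG2, at 0.06 and 0.09, did not exceed it. Cultures 1 and 4 were the highest wild-type cultures in 5 of the 10 genes (GSY1, GSY2, GLG1, GLC3 and GPH1). Cultures 2 and 5 were the lowest in 4 (GSY1, GLG1, GLC3 and GAC1). GAC1 was highest in cultures 1 and 6, and GLG2, PIG1, PIG2 and GDB1 had other orders. PIG1 was highest in cultures 2 and 5, at 9.0 and 8.94 against 8.45 to 8.60 in the other 4. PIG2 was lowest in cultures 1 and 4, and GLG2 was highest in cultures 1 and 2. GDB1 was highest in cultures 3 and 6, at 9.65 and 9.62 against 9.26 to 9.36 in the others.

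The wild-type cultures resembled each other in pairs. Of the 15 ways to join the 6 cultures in pairs, joining 1 with 4, 2 with 5 and 3 with 6 gave the smallest root mean square difference between partners. It was 0.136 over the 10 glycogen genes, where the other 14 pairings gave 0.407 to 0.724, and 0.141 over all genes, where the others gave 0.154 to 0.201. The labels do not say that these cultures share an isolate, and the pairing was picked out from the values. With these pairs as a random block in limma, GDB1 (adjusted p = 0.00271) and GPH1 (adjusted p = 0.0455) passed and GLG2 did not (adjusted p = 0.0523). This block took the same correlation between partners for every gene (0.1935), although partners were relatively closer in the glycogen genes. It may therefore count partners as more independent than they are in these genes. Over the 15 pairings the number of glycogen genes called was between 1 and 3.

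**Figure D3:**
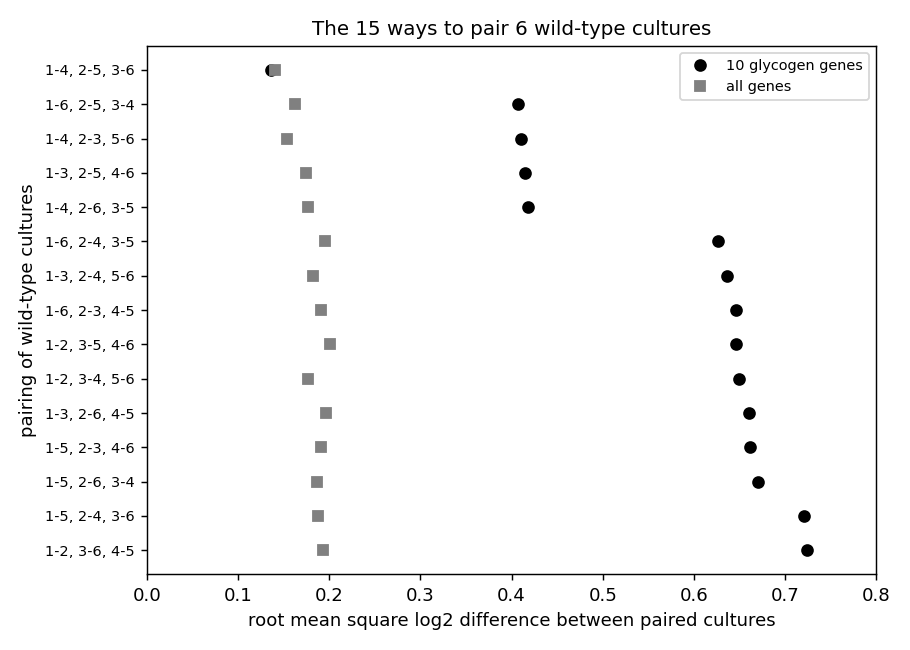
Root mean square log2 difference between paired wild-type cultures (x axis) for each of the 15 possible pairings of the 6 cultures (y axis), over the 10 glycogen genes (black circles) and over all 5449 genes (grey squares). Joining 1 with 4, 2 with 5 and 3 with 6 lies at 0.136 for the glycogen genes and every other pairing lies at 0.407 or above.

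The mean of a set of glucose-repressed markers was also highest in wild-type cultures 1 and 4 and lowest, among wild type, in cultures 2 and 5. Of the 8 markers listed, HXT6 had no probe set of its own among the genes measured. The mean was taken over the other 7 markers (HXK1, HXT4, HXT7, MTH1, ADR1, MDH2 and SUC2) and set to 0 at the wild-type mean. It was at -1.05, -1.38 and -1.31 in knockout cultures 7, 8 and 9. In wild type it was at 0.50 and 0.55 in cultures 1 and 4, 0.01 and -0.11 in cultures 3 and 6, and -0.50 and -0.44 in cultures 2 and 5. The mean of the 10 glycogen genes on the same scale was at -0.31, -0.36 and -0.25 in knockout cultures 7, 8 and 9, against 0.30 and 0.24 in wild-type cultures 1 and 4, 0.01 and -0.01 in cultures 3 and 6, and -0.24 and -0.29 in cultures 2 and 5. The markers were not uniform among wild-type cultures. SUC2 was lowest in cultures 1 and 4 (10.57 and 10.67, against 10.70 to 10.83 in the others), and ADR1 was at 8.04 in culture 3, level with 8.03 in culture 1. Knockout cultures were lower than every wild-type culture in the marker mean, whereas in the glycogen mean their range held wild-type culture 5 and came close to culture 2. Single members differed in how they varied with the marker mean among cultures of the same group. Pearson's r was 0.82 to 0.98 for GSY1, GSY2, GLG1, GLC3, GPH1 and GAC1. It was -0.15 for GDB1, -0.39 for GLG2, -0.69 for PIG1 and -0.72 for PIG2. Of the 7 markers 5 fell (HXK1, HXT4, MTH1, ADR1 and MDH2), where 2.90% of all genes were called lower. HXT7 had a difference of -1.47 (limma adjusted p = 0.0893), and SUC2, which encodes invertase, had 0.13 (adjusted p = 0.339). The part of this state in the glycogen differences was not tested. These markers were picked with earlier results of the same arrays known, so their direction is no independent evidence.

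**Figure D4:**
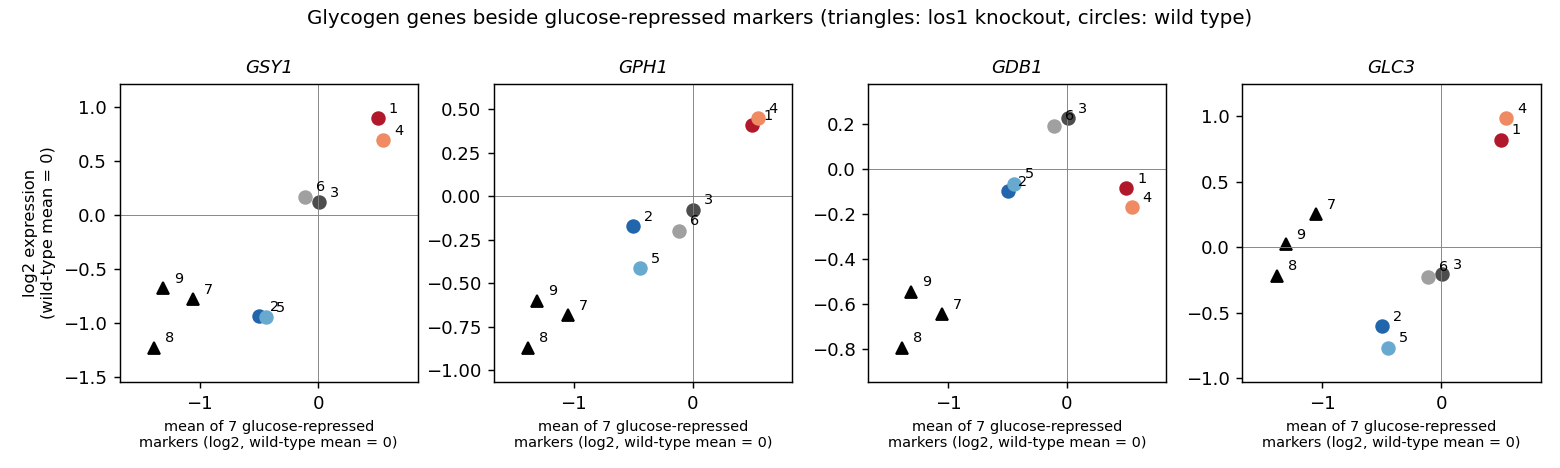
Log2 expression of GSY1, GPH1, GDB1 and GLC3 (y axis, wild-type mean set to 0) on each array against the mean of 7 glucose-repressed markers on that array (x axis, log2, wild-type mean set to 0). Triangles are los1 knockout cultures and circles wild-type cultures, numbered. In GSY1 the knockout cultures sit level with wild-type cultures 2 and 5, in GPH1 and GDB1 they sit below all wild-type cultures, and in GLC3 they sit above cultures 2 and 5.

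None of the 27 measured genes that supply or control glycogen metabolism passed the limma test, where 5.52% of all genes did. At an unadjusted p under 0.05 there were 5 (PGM2, PCL7, PSK1, MSN4 and GIS1, each with a lower knockout mean), or 18.5%, against 22.0% of all genes. Their median difference was -0.05. Among 5 genes on the metabolic side, PGM2, the main phosphoglucomutase that links glucose-6-phosphate and glucose-1-phosphate, came closest. It was at 8.71, 8.68 and 8.79 in knockout cultures 7, 8 and 9 and at 8.97 to 9.66 (median 9.19) in wild type. The groups did not overlap, but the difference of -0.54 ± 0.14 (SE) missed the threshold (limma adjusted p = 0.0579). It passed in 5 of the 22 alternative settings. These were without wild-type culture 5 (-0.60, limma adjusted p = 0.0274) and without cultures 1 and 4, its highest in wild type (-0.37, adjusted p = 0.0269). The others were a robust prior with intensity trend (adjusted p = 0.0472), array weights (adjusted p = 0.0255) and the wild-type pairing of lowest p (adjusted p = 0.0286).

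IGD1 (YFR017C), an inhibitor of the debranching enzyme whose gene is separated from GSY1 by 1 gene on chromosome VI in assembly R64, had a wild-type order close to that of GSY1. It was at 8.07, 7.75 and 8.18 in knockout cultures 7, 8 and 9, against 9.21 and 8.89 in wild-type cultures 1 and 4, 8.43 and 8.68 in cultures 3 and 6, and 7.89 and 8.02 in cultures 2 and 5. The difference of -0.52 ± 0.26 (SE) did not pass (limma adjusted p = 0.285). PGM1, the minor phosphoglucomutase, UGP1, which makes UDP-glucose, and SGA1, the glucoamylase of sporulating cells, had differences of 0.07, -0.02 and 0.00, with adjusted p of 0.566 or more.

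Of 4 genes of the phosphatase itself, the smallest p belonged to GLC8, a regulator of protein phosphatase 1 (difference 0.05, limma adjusted p = 0.507). GLC7, its catalytic subunit, had a difference of 0.05 with a 95% interval of -0.05 to 0.14. Of 9 kinase and cyclin genes the smallest p belonged to PCL7, a cyclin of Pho85, the kinase that restrains glycogen storage (difference -0.18, limma adjusted p = 0.0859). It passed without knockout culture 9, at -0.26 (adjusted p = 0.0221). SNF1, the kinase that promotes glycogen storage, had -0.15 (adjusted p = 0.306), and PHO85 had 0.05 (adjusted p = 0.704).

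Of 9 measured genes of stress and cAMP control, the smallest p belonged to MSN4, a stress transcription factor. It was at 8.15, 7.81 and 7.67 in knockout cultures 7, 8 and 9 and at 8.06 to 8.93 (median 8.27) in wild type, where cultures 1 and 4 were again the highest (8.93 and 8.72). The groups overlapped at knockout culture 7, and the difference of -0.53 did not pass (limma adjusted p = 0.134). Its paralog MSN2 had a difference of -0.08 (adjusted p = 0.352), and GIS1, a factor of the approach to stationary phase, had -0.34 (adjusted p = 0.173).

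The genes that varied most like the mean of the 10 glycogen genes among cultures of the same group were GLK1, MAL33, YLR177W, MAL31, ISF1 and YOR186W. Likeness was Pearson's r over the 9 arrays after each gene was centred within its group, among 5335 genes above background. The 6 values lay between 0.979 and 0.989, and the points include cultures that resemble each other in pairs. The mean does not stand for every member. Taken the same way, r with the mean of the other members was 0.81 to 0.96 for GSY1, GSY2, GLG1, GLC3, GPH1 and GAC1. It was -0.12 for GDB1, -0.27 for GLG2, -0.68 for PIG2 and -0.70 for PIG1. GLK1, the glucokinase gene, was at 11.61, 11.39 and 11.54 in knockout cultures 7, 8 and 9 and at 11.79 to 12.68 in wild type, with cultures 1 and 4 highest. Its groups did not overlap, and its difference of -0.73 ± 0.19 (SE) missed the threshold narrowly (limma adjusted p = 0.0513). MAL31 and MAL33, the permease and activator genes of a maltose locus, had differences of -0.74 and -0.54 (adjusted p = 0.168 and 0.170), and near-identical copies at other maltose loci may share their signal. Without wild-type cultures 1 and 4, r was 0.930 to 0.973, and 0 of the 6 genes ranked among the first 6.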

How the data were processed

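The deposited table holds a log2 value for each probe set and array, which the authors obtained by RMA (per the submitters' processing notes, version not given in the sources used here). RMA corrects background, quantile normalizes arrays and summarises probes on the log2 scale, which hides any shift common to most genes. The number of arrays limits the precision. Groups came from the sample descriptions.

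The table has 10928 probe sets. The platform annotation gave 7244 of them a single gene, and 5498 of these matched assembly R64. The brightest probe set per gene was kept (5449 genes). A further 1746 named sets matched no budding yeast gene, were taken as fission yeast and gave the background level. Assembly R64 served to match genes and to order the genes of chromosome VI. Coordinates are not printed, and sequences are left out, as no sequence table was used here.

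Differences were tested with limma 3.58.1 (lmFit, eBayes, 2-sided) in R 4.3.3 over all 5449 genes, a step tested on simulated data. Paralog gaps were tested by exact permutation over the 84 assignments of 9 arrays to groups of 3 and 6, which takes cultures as exchangeable. No set test was run.

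Members, lists and tests were chosen with earlier results of these data known. The genes named were all members, LOS1, URA3, the gene of smallest p in each related list, the glucose-repressed markers and the 6 genes most like the glycogen mean. Others were named after their values were seen. Alternatives were median centring, repeated quantile normalization, leaving out dim genes, averaging probe sets, testing every probe set, a robust prior with intensity trend (statmod 1.5.0), array weights, a 0.01 threshold on adjusted p, a 1.5-fold minimum, 15 wild-type pairings and leaving out cultures. The pairing of 1 with 4, 2 with 5 and 3 with 6 was singled out after seeing the data. No 2 arrays were copies: at most 31 of 10928 values were equal in any of 36 array pairs.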

Additional observations from a re-analysis of the deposited data

Results flagged for a closer look

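Among the 37 glycogen and related genes, 2 had 1 wild-type culture far from the other 5, measured as its gap to the nearest culture over the whole wild-type range (Dixon's ratio). GLC8 was high in wild-type culture 1, at 11.33 against 11.18 to 11.23 in the others (ratio 0.642), and TPK3, a catalytic subunit of cAMP-dependent kinase, was high in wild-type culture 3, at 10.60 against 10.42 to 10.48 (ratio 0.657). Chance flags about 1 in 20 groups of independent cultures, which is close to 2 of 37. None of the 10 glycogen genes met the critical value. The ratio cannot flag 2 cultures that stand apart together, as wild-type cultures 1 and 4 did in GSY1 and GLC3, so this does not show even wild-type values.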

How the results depend on the processing

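No paired analysis was possible because knockout and wild-type cultures share no replicate number. The count of glycogen genes past the threshold (3) was 1 when every probe set was tested, 1 at an adjusted p of 0.01 and 1 in the lowest of the 15 wild-type pairings, and ranged between 1 and 4 when 1 culture was left out. The other alternatives gave 2 or 3. Each glycogen gene had 1 probe set, so testing every probe set left their differences as they were and changed only their p-values. GDB1 passed in all 22 alternatives, GPH1 and GLG2 each lost their calls in 12 of 22, and GLG1 gained one in 1. The other 6 glycogen genes passed in none of the 22. The count over the 27 related genes (0) was 1 with the trend and robust prior, with array weights, without wild-type cultures 1 and 4 and in the highest of the 15 pairings, and 0 to 1 with 1 culture left out. The count over all genes (301) was 150 when every probe set was tested, 498 with array weights, 110 at an adjusted p of 0.01, 57 at a minimum of 1.5-fold, 146 without wild-type cultures 1 and 4, 196 to 468 over the 15 pairings and 126 to 478 with 1 culture left out. Median centring and repeated quantile normalization moved the split of higher and lower genes to 175 and 141 and to 175 and 126, against 143 and 158. Of the 6 genes most like the glycogen mean, 0 were among the first 6 without wild-type cultures 1 and 4. Stricter thresholds reduce calls by construction, and the cause of the other changes was not tested. None of the 4 paralog gaps passed in any of its 12 alternatives once adjusted over the 4 pairs. The lowest was GLG2 minus GLG1 without wild-type culture 5 (exact permutation p = 0.0179, the smallest possible there, adjusted 0.0714).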

Other observations

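GLC3 varied with GSY1, GLG1 and GPH1 among wild-type cultures but on average stood higher relative to them in the knockout. These gaps were chosen after their values were seen and carry no test. GLC3 minus GPH1 was 2.24, 1.96 and 1.93 in knockout cultures 7, 8 and 9 and 0.87 to 1.84 in wild type, with no overlap. GLC3 minus GSY1 was 0.14, 0.12 and -0.19 in knockout and -1.29 to -0.56 in wild type, again with no overlap. GLC3 minus GLG1 was 0.65 to 1.05 in knockout and -0.08 to 0.95 in wild type, where it overlapped. Among wild type, cultures 1 and 4 had the largest gaps to GPH1 (1.71 and 1.84) and to GLG1 (0.87 and 0.95).

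Genes known from sporulation did not share a direction, and 1 of the 5 listed passed, where 5.52% of all genes did. NDT80, the activator of middle sporulation genes, averaged 7.81 ± 0.05 in knockout and 7.28 ± 0.14 in wild type and rose by 0.52 (limma adjusted p = 0.0036). IME2, a meiotic kinase gene, averaged 9.03 ± 0.05 in knockout and 9.55 ± 0.32 in wild type without overlap, and did not pass (adjusted p = 0.0932). IME1, SPS1 and SPR3 had differences of 0.19, -0.41 and -0.01 (limma adjusted p = 0.106, 0.127 and 0.980). The groups did not overlap in 2 of the 5 (NDT80 and IME2), where 12.6% of all genes showed no overlap. SGA1, the sporulation glucoamylase that degrades glycogen, was at 5.60 in both groups.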
